A study of Caenorhabditis elegans with 2 samples.

Results

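SMA-9 binding was described at 7 Caenorhabditis elegans genes of the stress-activated MAP kinase pathways and of the transcription factor SKN-1, namely vhp-1, mlk-1, mek-1, kgb-1, pmk-1, skn-1 and wdr-23, out of 19973 protein-coding genes on the nuclear chromosomes. The genes were chosen by name, from the peak signals and ranks of these same lists, so every value below is a description and none is a test. The data came from chromatin immunoprecipitation and sequencing (ChIP-seq) of an eGFP fusion of SMA-9 in whole worms of the second larval stage (L2), males and females pooled. The only group had 2 biological replicates of strain OP130, which carries the unc-119(ed3) allele and the transgene insertion wgIs130 with the tagged sma-9. The binding of a tagged transgene product was thus measured over all cells of the larva at once, and no cell type could be told apart. Each replicate, and the pool of both, had a list of 30000 peaks that includes background. The authors' thresholded list is labelled as cut by irreproducible discovery rate (IDR), a measure of agreement between replicates. It held 125 peaks, which were the 125 of highest pooled signal. No control library was used here, and the read depth was unknown from these lists.

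MAP kinase cascades pass a signal from a MAP kinase kinase kinase to a MAP kinase kinase and on to a MAP kinase, each kinase activating the next by phosphorylation. In C. elegans the p38 kinase PMK-1 acts in innate immunity and oxidative stress, and the JNK-like kinase KGB-1 acts in heavy metal and protein folding stress and in axon regeneration. The phosphatase VHP-1 removes the activating phosphates from both kinases. SKN-1, related to mammalian Nrf proteins, switches on detoxification genes and is activated by PMK-1, while the WD40 protein WDR-23 directs it to degradation. SMA-9 is a zinc finger protein related to fly Schnurri and works beside SMAD proteins in the BMP-like pathway of body size.

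The 5 member peaks within the strongest 250 of the pooled list lay at vhp-1 and skn-1. Their sequences are shown because they are the strongest peaks at the 7 genes. Each is the 200 bp centred on the peak summit (here the centre of the peak), from the RefSeq genome in the ce11 build, plus strand, 5′ to 3′, which is the sense strand of vhp-1 and the antisense strand of skn-1. Capitals mark GAGAGA on either strand (TCTCTC as read here), the SMAD palindrome GTCTAGAC and the GATA-type motif TGATAA. The peaks are named by gene and pooled rank, and the windows are II:5330262-5330461, II:5326314-5326513, II:5337361-5337560, II:5322916-5323115 and IV:5657103-5657302, in the order shown. No base of any window was annotated as coding or UTR.
vhp-1 rank 23: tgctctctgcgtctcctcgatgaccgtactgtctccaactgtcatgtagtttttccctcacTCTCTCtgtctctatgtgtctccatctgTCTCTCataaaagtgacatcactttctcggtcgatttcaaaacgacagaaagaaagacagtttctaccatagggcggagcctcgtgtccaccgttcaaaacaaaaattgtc
vhp-1 rank 100: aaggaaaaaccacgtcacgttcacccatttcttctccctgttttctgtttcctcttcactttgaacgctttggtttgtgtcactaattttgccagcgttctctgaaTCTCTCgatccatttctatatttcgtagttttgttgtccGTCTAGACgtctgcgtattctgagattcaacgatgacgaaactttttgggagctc
vhp-1 rank 158: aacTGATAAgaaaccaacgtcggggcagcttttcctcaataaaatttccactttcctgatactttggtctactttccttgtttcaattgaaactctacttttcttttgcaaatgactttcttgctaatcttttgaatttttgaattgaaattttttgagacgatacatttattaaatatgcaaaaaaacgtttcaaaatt
vhp-1 rank 244: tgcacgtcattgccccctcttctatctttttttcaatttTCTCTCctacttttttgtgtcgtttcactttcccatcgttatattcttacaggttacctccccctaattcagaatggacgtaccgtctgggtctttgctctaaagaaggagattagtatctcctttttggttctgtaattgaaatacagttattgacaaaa
skn-1 rank 36: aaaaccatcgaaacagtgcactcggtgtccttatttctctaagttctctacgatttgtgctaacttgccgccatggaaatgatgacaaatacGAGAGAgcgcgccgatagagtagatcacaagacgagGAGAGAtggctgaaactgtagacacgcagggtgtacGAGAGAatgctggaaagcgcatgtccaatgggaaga

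The vhp-1 window of rank 23 held GAGAGA at 2 places, centred 9 and 37 bp from the summit, and the skn-1 window held it at 3 places, centred 6, 30 and 66 bp away. The vhp-1 window of rank 100 had it once, 8 bp from the summit, and that of rank 244 once, 59 bp away, while the window of rank 158 had none. GAGAGA was thus in 3 of 3 thresholded member windows and in 7 of the other 33 member windows (21.2%). On either strand it was in 55.2% of the 125 thresholded windows and in 10.4% of all 30000 pooled windows. At least 2 copies were in 28.8% of thresholded and 2.49% of all pooled windows, and at least 3 copies in 16.0% and 1.10% of the same sets.

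A single GTCTAGAC, the palindrome of 2 SMAD boxes, lay at II:5326459-5326466, centred 48 bp from the summit of the vhp-1 peak of rank 100. This was the only thresholded window of the 125 with these 8 letters, which were in 43 of the 30000 pooled windows (0.143%). The palindrome was searched for at the 7 genes after the sequence had been read. The SMAD box GTCT, whose 4 letters also lie inside the palindrome, was in 3 of 3 thresholded and 23 of 33 other member windows, against 88.8% of thresholded and 60.7% of all pooled windows. GTCAT, part of the core of SKN-1 sites, was in 3 of 3 thresholded and 14 of 33 other member windows, against 36.8% of thresholded and 25.9% of all pooled windows.

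Of the other motifs searched on both strands, TGATAA was in none of the 3 thresholded member windows and in 5 of the 33 others, against 12.8% of thresholded and 20.0% of all pooled windows. The E-box CACGTG and the AP-1 site TGACTCA were each in 0 of 3 thresholded and 1 of 33 other member windows. In the thresholded list CACGTG was in 19.2% and TGACTCA in 2.40% of windows, against 3.40% and 2.12% of all pooled windows. GGCGCC was in none of the 36 member windows, against 11.2% of thresholded and 1.27% of all pooled windows. The GC content was 42.0 to 47.5% in the 3 thresholded member windows, against a median of 47.0% over the thresholded list. It was 22.5 to 54.0%, with a median of 33.5%, in the 33 others, against a median of 34.5% over all pooled windows. These matches are letters in a window and not sites shown to be used.

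The 7 genes held 36 pooled summits in their bodies and the 5 kb upstream of them, 23 in the bodies and 13 upstream. That is a total of 0.421 summits per kb over 85.4 kb, and 15 of the 36 summits were at vhp-1. Gene by gene the density ran from 0.134 at pmk-1 to 0.665 at vhp-1. Over all coding genes the medians per gene were 2 summits, 7.03 kb and 0.2945 summits per kb, a measure unlike the total. Peak signal is the authors' own value for each peak, with no scale stated, and rank 1 is the highest. Across the 36 summits the pooled signal ran from 11.01 to 59.7 with a median of 14.2, close to the median of 14.15 over the whole pooled list. By best peak, 2 of the 7 genes, vhp-1 and skn-1, had a thresholded peak, and the best peaks of the other 5 ranked between 3689 and 13658. These ranks were known when the genes were chosen, so the split is a description only.

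A thresholded summit lay at 2 of the 7 genes, against 0.766% of all coding genes (153 of 19973). At vhp-1 there were 2 such summits, a number reached at 1 of the 7 genes and at 0.0751% of all coding genes (15). Among the 125 strongest peaks of replicate 1, summits lay at vhp-1 and skn-1, again 2 of 7 genes, against 0.756% of coding genes. The 125 strongest of replicate 2 gave the same 2 genes, against 0.931%, and both replicates together gave 2 of 7 against 0.27%. Nothing is read from these shares, since the genes were picked with the lists known. The weakest thresholded peaks had signals of 34.65 and 34.59, and the next below the threshold had 34.48 and 34.34. None of these 4 lay at the 7 genes, and the nearest member peaks were that of rank 100 above and that of rank 158 below, both at vhp-1.

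**Figure D1:**
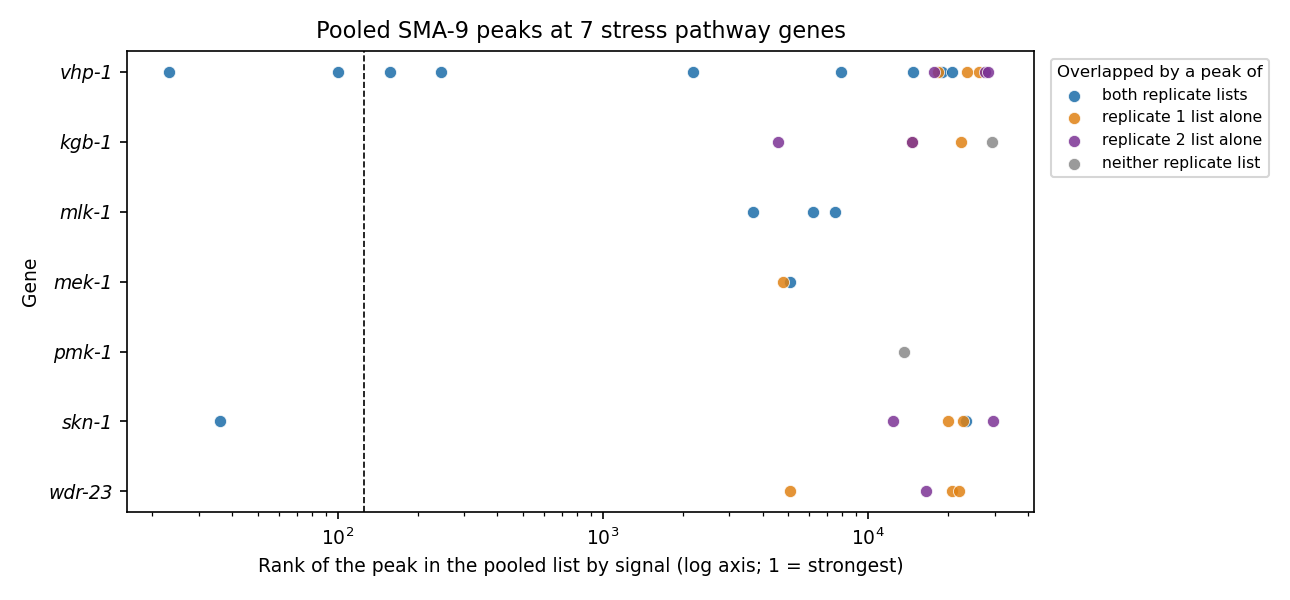
Rank of each of the 36 pooled peaks (log axis, 1 is the strongest) at the 7 genes, one line of points per gene, coloured by which replicate lists hold an overlapping peak; points can lie over each other. The dashed line marks rank 125, the end of the thresholded list, and only 2 points of vhp-1 and 1 of skn-1 lie left of it.

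The gene vhp-1 (WBGene00006923, II:5323276-5340829, plus strand, ce11) encodes the MAP kinase phosphatase and had the most peaks, with 15 pooled summits in a 22.55 kb window. Replicate 1 and replicate 2 had 13 summits each there. Its annotation has 8 transcripts with 6 different starts. Only 26 coding genes (0.130%), vhp-1 included, had a best pooled rank as high. Long windows hold more summits: among the 278 coding genes with a window at least as long, 8 (2.88%) had a thresholded summit and 2 (0.719%) had a best rank as high, vhp-1 included in each count.

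The strongest vhp-1 peak, II:5330170-5330553, had a signal of 59.7 in the pooled list (rank 23), 29.9 in replicate 1 (rank 60) and 26.2 in replicate 2 (rank 12). Its summit was placed within 1 bp in all 3 lists. These signals were 4.22, 3.15 and 4.13 times the median of their own list. The summit lay 7086 bp downstream of the 5′ end of the gene and 1124 bp upstream of the start of transcript F08B1.1a.1, in the 8201 bp first intron of F08B1.1e.1 (II:5323285-5331485). An antisense RNA gene, anr-54, is annotated in the same intron, and the summit was in its exon, 859 bp from its start.

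The next vhp-1 peak, II:5326222-5326605, lay in the same intron, 3138 bp downstream of the gene's 5′ end. Its signal was 37.1 in the pooled list (rank 100), 18.1 in replicate 1 (rank 607) and 14.8 in replicate 2 (rank 140). It was thus above the threshold in the pooled list, but outside the strongest 125 peaks of either replicate.

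Both of the next peaks were below the threshold and ranked far higher in replicate 1 than in replicate 2. The peak at II:5337269-5337652, in an intron 767 bp upstream of the start of F08B1.1c, had a pooled signal of 32.4 (rank 158), with 24.6 in replicate 1 (rank 122) and 8.86 in replicate 2 (rank 4399). The peak at II:5322824-5323207, between genes and 260 bp upstream of the 5′ end of vhp-1, had a pooled signal of 29.4 (rank 244), with 19.3 in replicate 1 (rank 408) and 8.998 in replicate 2 (rank 4057). At neither peak did the matched replicate summits coincide. From the pooled summit they lay 8 bp (replicate 1) and 182 bp (replicate 2) away at rank 158, and 104 bp (replicate 1) and 6 bp (replicate 2) away at rank 244. With 4 summits to rank 250, the last of them of rank 244, vhp-1 was one of 3 coding genes with as many. The others were T28B11.1 and pqn-41, whose windows of 25263 and 38613 bp were longer than the 22554 bp of vhp-1. Nothing is read from this count, since vhp-1 was picked with these ranks known.

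The remaining 11 vhp-1 summits were weak. The best of them, of rank 2177 (signal 21.4), lay 4 bp downstream of the start of F08B1.1c, in a coding exon. The other 10 ranked from 7896 to 28427, with signals of 16.8 down to 11.2. In replicate 2 a peak of signal 11.1 (rank 1204) lay at 17236 bp in the 3′ UTR, while replicate 1 had no peak there. The strong peaks of this gene thus lay in its long first intron, followed by those 767 bp upstream of the start of F08B1.1c and 260 bp upstream of the first start.

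**Figure D2:**
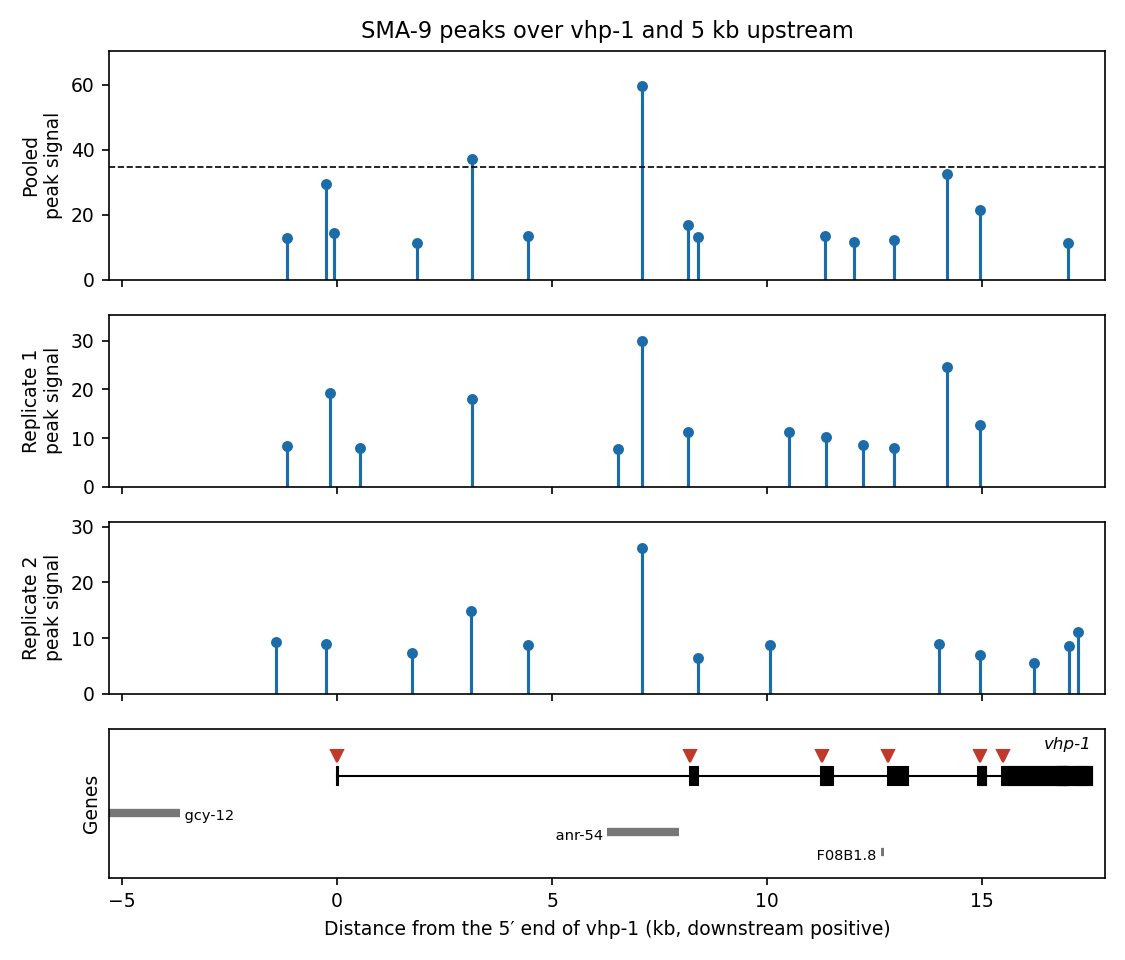
Signal of each peak (authors' value, no unit stated) against distance from the 5′ end of vhp-1 in kb, in the pooled list, replicate 1 and replicate 2, with exons (black), annotated starts (red) and other genes (grey) below. The dashed line is the lowest thresholded signal, 34.59; the peaks 3138 and 7086 bp downstream exceed it, and the tallest stands at the same place in all 3 lists.

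Of the kinases, mlk-1 (WBGene00003374, V:5056378-5064811, minus strand), the MAP kinase kinase kinase at the top of the KGB-1 cascade, had 3 pooled summits, all overlapped by peaks of both replicates. The best lay 319 bp upstream of its 5′ end, between genes, with a pooled signal of 19.6 (rank 3689), 11.7 in replicate 1 (rank 7067) and 5.06 in replicate 2 (rank 25406). The others were in an intron (rank 6190, signal 17.7) and in the 3′ UTR (rank 7524, signal 16.9). Both replicates thus held a peak near the mlk-1 start, but that of replicate 2 was below its list's median of 6.34.

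For mek-1 (WBGene00003185, X:7479248-7481005, plus strand), the MAP kinase kinase that follows MLK-1, both pooled summits lay upstream. The peak 1359 bp upstream had a pooled signal of 18.6 (rank 4768) and was in replicate 1 alone, with 15.2 (rank 1825). The peak 2506 bp upstream had a pooled signal of 18.4 (rank 5057), with 7.41 in replicate 1 (rank 28310) and 10.2 in replicate 2 (rank 2124). Each replicate thus placed its best mek-1 peak at a different spot.

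At kgb-1 (WBGene00002187, IV:405621-410035, minus strand), which encodes the JNK-like MAP kinase, 5 pooled summits were found and none was overlapped by peaks of both replicates. The best lay 665 bp upstream, 167 bp upstream of the start of T07A9.12, with a pooled signal of 18.8 (rank 4580) and 6.73 in replicate 2 (rank 12625). The best replicate 1 peak, of signal 14.5 (rank 2406), lay in an intron of T07A9.12 and overlapped the pooled peak of rank 14647, 4379 bp upstream of kgb-1. The other 3 pooled peaks ranked 14694, 22433 and 29256.

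The p38 kinase gene pmk-1 (WBGene00004055, IV:8148794-8151266, plus strand) had the lowest best pooled rank of the 7. The gene pmk-2 (IV:8143500-8148648, same strand) takes up nearly all of the 5 kb upstream, so sequence upstream of pmk-2 was not covered. Its only pooled summit, with a signal of 14.5 (rank 13658), lay 3795 bp upstream in an intron of the neighbouring p38 gene pmk-2, and neither replicate had a summit anywhere in the window. Of all coding genes, 776 (3.88%) had no summit in either replicate list, and 63.0% had a best pooled rank as high as that of pmk-1. The corresponding shares for the best ranks of mlk-1, kgb-1 and mek-1 were 24.2%, 29.0% and 29.9%. Among coding genes with a window at least as long, these shares were 40.67%, 39.44% and 33.66%, and that for pmk-1 was 69.94%. The median best rank was 7878 over the coding genes with a pooled summit, so mlk-1, kgb-1 and mek-1 ranked above the median gene and pmk-1 below it. This median is not matched for window length. Among windows at least as long, the lead of mlk-1, kgb-1 and mek-1 was smaller, with the least change for mek-1, and pmk-1 stood lower.

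The gene skn-1 (WBGene00004804, IV:5651039-5660384, minus strand) had 1 strong peak and 5 weak ones. The strong peak, IV:5657011-5657394, had a signal of 51.1 in the pooled list (rank 36), 29.8 in replicate 1 (rank 62) and 20.6 in replicate 2 (rank 29). These were 3.61, 3.14 and 3.25 times the median of their own list. Only 46 coding genes (0.230%), skn-1 included, had a best pooled rank as high. Among the 1142 coding genes with a window of at least the same length, 31 (2.715%) had a thresholded summit and 13 (1.14%) a best rank as high, skn-1 again included.

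The strong summit lay 3181 bp downstream of the 5′ end, in the 4347 bp first intron (IV:5655909-5660255) of transcript T19E7.2a.1, and 1598 bp upstream of the start of T19E7.2c.1. It was thus placed between the starts of these transcripts, as the strongest vhp-1 peak was between those of F08B1.1e.1 and F08B1.1a.1. A small noncoding RNA gene, T19E7.26, starts 115 bp away, the summit being upstream of it. The replicates placed the summit less tightly than at vhp-1, 25 bp (replicate 1) and 102 bp (replicate 2) from the pooled summit. In each replicate a weaker peak also overlapped the pooled one, of rank 23370 in replicate 1 and 10494 in replicate 2.

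The other 5 pooled summits at skn-1 ranked from 12374 to 29561, with signals of 15.0 down to 11.01. The replicate lists held 8 (replicate 1) and 11 (replicate 2) summits in this window, of which 3 and 6 overlapped no pooled peak. One of these, in replicate 2 alone, lay 267 bp upstream of the skn-1 5′ end with a signal of 9.15 (rank 3736). In replicate 1 a peak lay 173 bp downstream of that end, with a signal of 8.93 (rank 17985). Both were near the annotated start of the longest transcript, but neither overlapped a peak of the other replicate or of the pooled list.

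**Figure D3:**
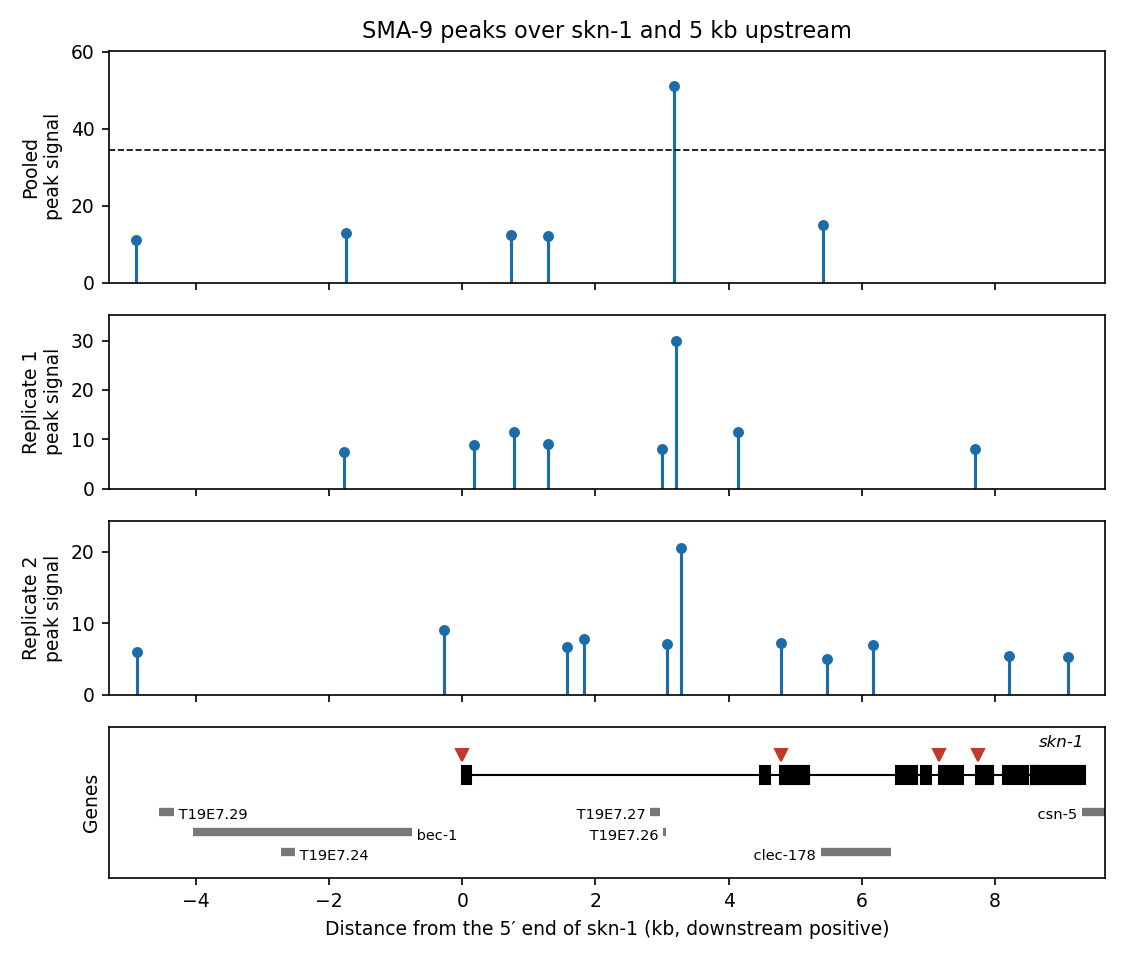
Signal of each peak (authors' value, no unit stated) against distance from the 5′ end of skn-1 in kb, in the direction of transcription, in the pooled list, replicate 1 and replicate 2, with exons (black), annotated starts (red) and other genes (grey) below. The dashed line is the lowest thresholded signal, 34.59; a single peak, 3181 bp downstream in the first intron, exceeds it, and a tall peak stands within 102 bp of it in both replicates.

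The adaptor gene wdr-23 (WBGene00008419, I:7595776-7602221, plus strand) had 4 pooled summits, none overlapped by peaks of both replicates. The best lay in an intron 109 bp upstream of the start of D2030.9b.1, with a pooled signal of 18.4 (rank 5059) and 11.9 in replicate 1 (rank 6629). The best replicate 2 peak, of signal 10.6 (rank 1675), was in an intron 5376 bp downstream of the 5′ end and overlapped the pooled peak of rank 16602. Of all coding genes, 31.2% had a best pooled rank as high, and of those with a window at least as long as that of wdr-23, 47.15%. Its best pooled rank was thus below those of mlk-1, kgb-1 and mek-1 and above that of pmk-1, an order that did not hold in the replicates. In replicate 1 its best rank, 5434, was above that of mlk-1 (7067), and in replicate 2 its 1675 was above those of mek-1 (2124), mlk-1 (7098) and kgb-1 (12625).

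Over the 7 genes, 15 of the 36 pooled peaks (41.7%) were overlapped by a peak of both replicates, 11 by replicate 1 alone, 8 by replicate 2 alone and 2 by neither. By gene, 9 of the 15 were at vhp-1, 3 at mlk-1, 2 at skn-1 and 1 at mek-1, while kgb-1, pmk-1 and wdr-23 had none. The share over the 7 genes thus rests largely on vhp-1. Over the whole pooled list 33.8% were overlapped by both, and among the thresholded peaks 96.0%. The thresholded list is labelled as cut by IDR and the pool holds both replicates, so a high share there was favoured in advance. The 3 thresholded member peaks were all in both, as were the vhp-1 peaks of rank 158 and 244, while 94.4% of ranks 126 to 250 were. Of the 15 shared peaks, 8 ranked higher in replicate 1 and 7 in replicate 2. The 8 include the vhp-1 peaks of rank 244 and 14798, which rest on the same replicate peaks, as do those of rank 7896 and 18984. The 15 are thus not all separate. Only the 3 thresholded ones were within the strongest 1000 of both replicates. Their log2 ratio of replicate 1 to replicate 2 signal was 0.19, 0.29 and 0.53, while the log2 ratio of the list medians was 0.58. For the 15 it ran from −0.46 at the mek-1 peak of rank 5057 to 1.47 at the vhp-1 peak of rank 158. At both extremes the replicate summits did not coincide. At mek-1 the replicate 1 summit lay 192 bp from the pooled summit and that of replicate 2 lay 1 bp from it, and at vhp-1 they lay 8 bp (replicate 1) and 182 bp (replicate 2) away. Among the 36 peaks 3 pairs overlap each other, 1 at wdr-23 and the others at vhp-1, where both peaks of a pair matched the same replicate peaks and so share their support. Conversely, 6 of 31 replicate 1 summits and 12 of 36 replicate 2 summits at the 7 genes overlapped no pooled peak.

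**Figure D4:**
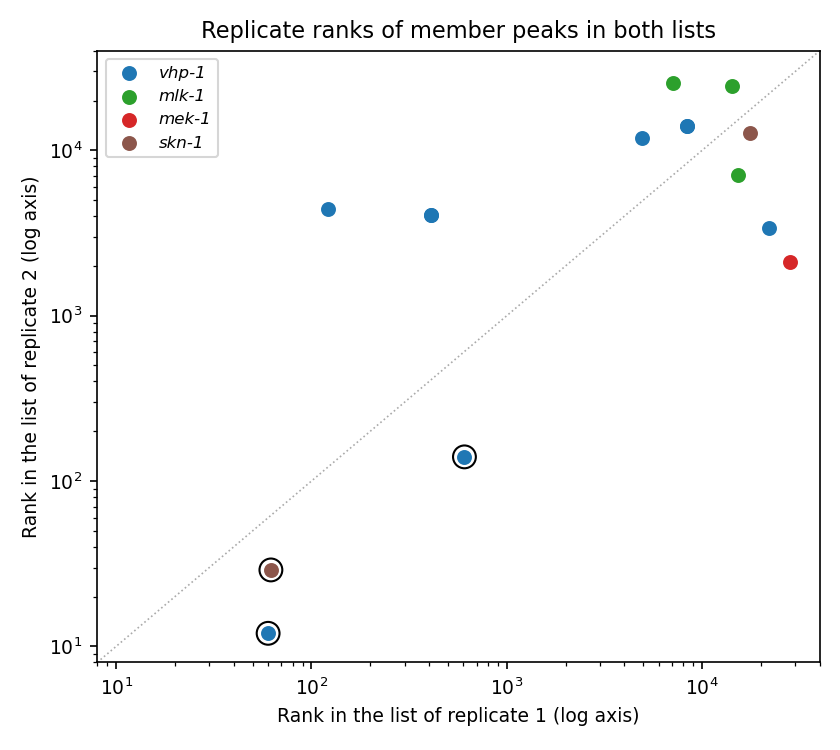
Rank in replicate 1 against rank in replicate 2 (both log axes, 1 is the strongest) for the 15 pooled member peaks overlapped by both replicate lists, coloured by gene; circles mark the 3 thresholded peaks and the dotted line equal rank. Points of vhp-1 that share replicate peaks coincide; the circled points are the only ones within rank 1000 on both axes.

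Other genes of these pathways were read from 4 lists with 58 names, none of them among the 7. These lists matched 59 genes, because the annotation gives the name numr-1 to 2 genes. Thresholded summits lay at 2 of the 59, both among the 12 other regulators and partners of SKN-1, against 0.766% of all coding genes. The first, ogt-1, encodes the O-GlcNAc transferase. Its peak lay between genes 2083 bp upstream and had a pooled signal of 41.5 (rank 75) and 41.3 in replicate 1 (rank 21), with no peak in replicate 2. The second, gsk-3, encodes a kinase that inhibits SKN-1. Its peak lay 3149 bp upstream, in a coding exon of Y18D10A.4, with a pooled signal of 36.4 (rank 109), 22.9 in replicate 1 (rank 161) and 10.99 in replicate 2 (rank 1315). Both thus ranked higher in replicate 1, and neither was as high in both replicates as the strongest peaks of vhp-1 and skn-1.

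With 5 kb upstream, the lists without a thresholded summit were the 18 other stress MAP kinase genes, the 20 names of SKN-1, PMK-1 and KGB-1 targets and the 8 genes of the ERK cascade. After ogt-1 and gsk-3 the best ranks were those of sgk-1, atf-7 and fos-1. At sgk-1, which encodes a kinase of the insulin pathway, a peak 3624 bp upstream had a pooled signal of 32.4 (rank 156), with 18.7 in replicate 1 (rank 495) and 8.48 in replicate 2 (rank 5351). At atf-7, the transcription factor that PMK-1 acts on in immunity, a peak in the 3′ UTR had a pooled signal of 29.9 (rank 228), with 19.4 in replicate 1 (rank 386) and 12.8 in replicate 2 (rank 428). An intron of fos-1, which encodes an AP-1 protein, held a peak of signal 28.5 (rank 289), with 19.5 in replicate 1 (rank 373) and 8.29 in replicate 2 (rank 5945).

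The median best pooled rank was 4580 over the 7 genes, 3849 over the other stress MAP kinase genes, 9267 over the other SKN-1 regulators, 9793 over the targets and 8464 over the ERK cascade, against 7878 over all coding genes, each among genes with a pooled summit. Window lengths were not matched in these medians. The best target was irg-5 at rank 651 and the best ERK cascade gene was the phosphatase gene lip-1 at rank 2023. By these values the strongest SMA-9 peaks of the 7 genes lay at vhp-1 and skn-1, and those at the 4 kinase genes among them ranked lower. Other kinase genes of the lists, gsk-3 (rank 109) and sgk-1 (rank 156), ranked above these 4. The ogt-1 peak (rank 75) ranked above the second vhp-1 peak (rank 100). Since the 7 genes were chosen with these ranks known, no pattern by kind of gene is read from them.

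**Figure D5:**
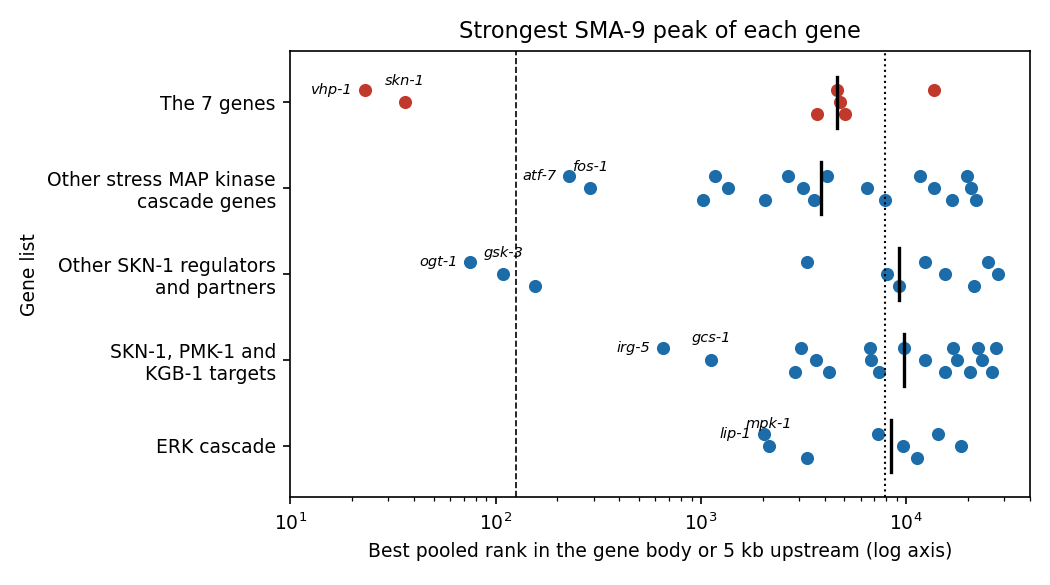
Best pooled rank (log axis, 1 is the strongest) of each gene with a pooled summit in its body or 5 kb upstream, for the 7 genes (red) and the 4 other lists (blue), with the best 2 of each list named. Bars mark each list's median, the dashed line rank 125 and the dotted line the median of all coding genes with a pooled summit, 7878; vhp-1 and skn-1 lie farthest left.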

How the data were processed

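ChIP-seq of eGFP-SMA-9 had 1 group with 2 biological replicates, numbered in the labels. The deposited lists give each peak a signal in column 7, never negative, which was used to rank. They also give a score in column 9, per the deposited narrowPeak layout, which is below 0 for 20593 pooled peaks, so its scale is unknown and it served only for another ranking. The thresholded list equals the 125 highest pooled signals. The sources used here give no aligner, caller or rate threshold. The ce10 lists were not used here.

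Peaks were assigned by summit (the centre of peaks of 1 width per list) to gene bodies plus 5 kb upstream, with Ensembl release 115 genes of WBcel235, the build of ce11, in 1-based coordinates. No peak passed a chromosome end. A replicate peak matched a pooled peak by at least 1 bp of overlap, taking the nearest summit. Motifs were read on both strands in 200 bp from RefSeq. Windows were checked on simulated data with Python 3.11.15 and pandas 2.3.3.

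The members and lists were chosen with earlier results of these data known. Named genes are the 7, list genes with a thresholded peak, the next 3 by rank and neighbours at thresholded member summits; irg-5, lip-1, T28B11.1, pqn-41 and neighbours of weaker peaks were named after their values were seen. Windows of 2 and 10 kb, any overlap, a stricter threshold, column 9 and single replicates were tried.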

Additional observations from a re-analysis of the deposited data

How the results depend on the processing

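The counts of thresholded peaks (3) and of genes with one (2, vhp-1 and skn-1) stayed within 1.5 times under all 7 alternatives, and that of pooled summits (36) under all 5. For the thresholded peaks several of these settings say little. All 3 lay in gene bodies, so windows of 2 or 10 kb upstream and any overlap could not lose them. The count of thresholded peaks was 2 in the upper part of the list and without replicate 1. The peaks counted were not the same ones: the vhp-1 peak of rank 100 was lost in the upper part of the thresholded list and without either replicate. Leaving out a replicate gave 2 to 3 peaks, and the 3 of replicate 1 alone include the vhp-1 peak of pooled rank 158 in its place. The median best rank of the 7 genes, 4580 as reported, was 2124 without replicate 1 and 2406 without replicate 2. In these 2 values pmk-1, which had no summit in either replicate, was counted as the last of the 7. By column 9 it was 8971, which cannot be read as strength. Among the weaker member peaks column 9 ran opposite to signal: pooled rank 2177 was 28943 by column 9, and pooled rank 29561 was 690. The kinase genes and wdr-23 had no stable order between the replicates. Of these, kgb-1 ranked 2406 in replicate 1 and 12625 in replicate 2. In replicate 1 mek-1 (1825) was ahead of wdr-23 (5434), and in replicate 2 wdr-23 (1675) was ahead of mek-1 (2124). The 2 genes of the wider lists with a thresholded peak became 0 with 2 kb upstream, and 0 to 1 without one of the replicates. With 10 kb upstream they were 3, the ERK cascade kinase gene mpk-1 (rank 77) being added. For pmk-1 no value could be had with 2 kb upstream or from a single replicate, where its window is empty. The causes were not tested. No paired analysis was possible because there is 1 group. With 2 replicates and unknown depth, no spread beyond the pair of values and no interval can be given, and absence from a list does not show absence of binding.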
